A study of Homo sapiens with 8 samples.

Results

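The genes here belong to families of secreted and membrane-anchored metalloproteases that cut the extracellular matrix, of related non-catalytic ADAMTSL proteins and of protease inhibitors. They were taken from the count table by symbol: every gene named ADAMTS, ADAMTSL or MMP followed by a number (MMP23A and MMP23B included), and TIMP1 to TIMP4. This gave 52 of the 61209 gene names in the table: 19 ADAMTS, 5 ADAMTSL, 24 MMP and 4 TIMP genes. Of these, 41 had enough counts to be tested and 11 did not. The untested ones were ADAMTS8, ADAMTS16, MMP3, MMP7, MMP8, MMP10, MMP12, MMP13, MMP20, MMP26 and MMP27.

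RNA was sequenced from cells derived from H1, a human embryonic stem cell line, that carried an Msx1-P2A-tdTomato reporter. On day 0 the cells received Activin A (50 ng/mL), CHIR99021 (6 µM, a GSK3 inhibitor that activates WNT signalling), BMP4 (40 ng/mL) and FGF2 (10 ng/mL), and from day 1 BMP4 (60 ng/mL) with CHIR99021 (1 µM) for 3 days. On day 4 dissociated cells were gathered into pellets, 25000 to a well, and FGF8 plus FGF10 (500 ng/mL each) was given to one set and Mock medium to the other. On day 8 cells positive for the Msx1 reporter were sorted by Pdgfra into Pdgfra+ and Pdgfralow cells. The 4 groups were FGF8+10 Pdgfra+, FGF8+10 Pdgfralow, Mock Pdgfra+ and Mock Pdgfralow, with 2 libraries each that the labels call biological replicates. What the Mock medium held is not given in the sources used here, nor whether the replicates came from separate differentiations. The p-values below therefore measure the spread between these libraries, which may be technical. The cells are 1 line, and the reporter allele is carried by every group.

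As background, matrix metalloproteases (MMPs) are zinc enzymes made as inactive precursors. Collagenases cut fibrillar collagen, gelatinases cut denatured collagen and basement membrane, and membrane-type MMPs such as MMP14 act at the cell surface, where MMP14 and TIMP2 together activate pro-MMP2. ADAMTS proteases are secreted enzymes with thrombospondin repeats: one branch cuts the large hyaluronan-binding proteoglycans (hyalectans) versican and aggrecan, one removes the amino propeptide from fibrillar procollagens, and another is tied to fibrillin microfibrils. ADAMTS-like (ADAMTSL) proteins have the repeats but no protease domain, and TIMPs are the tissue inhibitors of these enzymes. Versican removal by ADAMTS proteases is known from mouse limb and heart development.

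The libraries held 47698561 to 64390444 assigned counts. Normalised levels (CPM) were computed on library sizes scaled by TMM, and 1 library's floor of 6 counts, or 3 read pairs, corresponded to 0.0883 to 0.134 CPM. Both genes used in sorting differed with treatment. PDGFRA averaged 714 CPM in FGF8+10 Pdgfra+ and 454 CPM in Mock Pdgfra+ cells, and 285 CPM in FGF8+10 Pdgfralow and 191 CPM in Mock Pdgfralow cells. MSX1 averaged 50.3 CPM in FGF8+10 Pdgfra+ and 21.7 CPM in Mock Pdgfra+ cells, and 50.7 CPM in FGF8+10 Pdgfralow and 26.1 CPM in Mock Pdgfralow cells. Since sorting followed treatment, the same gate may hold different cells in the treated and Mock cultures. In such bulk samples, fewer cells of a type and less RNA per cell cannot be told apart.

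FGF8+10 changed most of the tested members. In Pdgfra+ cells 5 of the 17 tested ADAMTS genes rose and 10 fell, 1 of 5 ADAMTSL genes rose and 4 fell, 6 of 15 MMP genes rose and 3 fell, and all 4 TIMP genes rose. Pdgfralow cells had 5 ADAMTS genes higher and 11 lower, 1 ADAMTSL gene higher and 4 lower, 6 MMP genes higher and 3 lower, and 3 TIMP genes higher and 1 lower. For Pdgfra+ cells this made 33 of the 41 tested members that passed an adjusted p of 0.05 (edgeR quasi-likelihood test, Benjamini-Hochberg over all 22554 genes tested), 16 higher and 17 lower with FGF8+10. Of all genes tested, 50.9% passed, 25.8% higher and 25.1% lower. In Pdgfralow cells 34 of 41 passed, 15 higher and 19 lower, where 55.7% of all genes tested passed, 27.9% higher and 27.7% lower. At a change of at least 2-fold, 21 members passed in Pdgfra+ cells, against 17.1% of all genes, and 23 in Pdgfralow cells, against 21.3% of all genes. The median absolute log2 change over the tested members was 1.06 in Pdgfra+ cells, where it was 0.42 over all genes, and 1.47 in Pdgfralow cells, where it was 0.49 over all genes. Of the tested members, 13 rose in both populations (ADAMTS2, ADAMTS6, ADAMTS7, ADAMTS13, ADAMTSL2, MMP1, MMP2, MMP11, MMP14, MMP28, TIMP2, TIMP3 and TIMP4) and 16 fell in both. The counts describe the tested members only, since a gene had to be high enough in some group to be tested. The 16 that fell were ADAMTS1, ADAMTS4, ADAMTS5, ADAMTS9, ADAMTS12, ADAMTS14, ADAMTS15, ADAMTS17, ADAMTS18, ADAMTS19, ADAMTSL1, ADAMTSL3, ADAMTSL4, ADAMTSL5, MMP16 and MMP19.

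**Figure D1:**
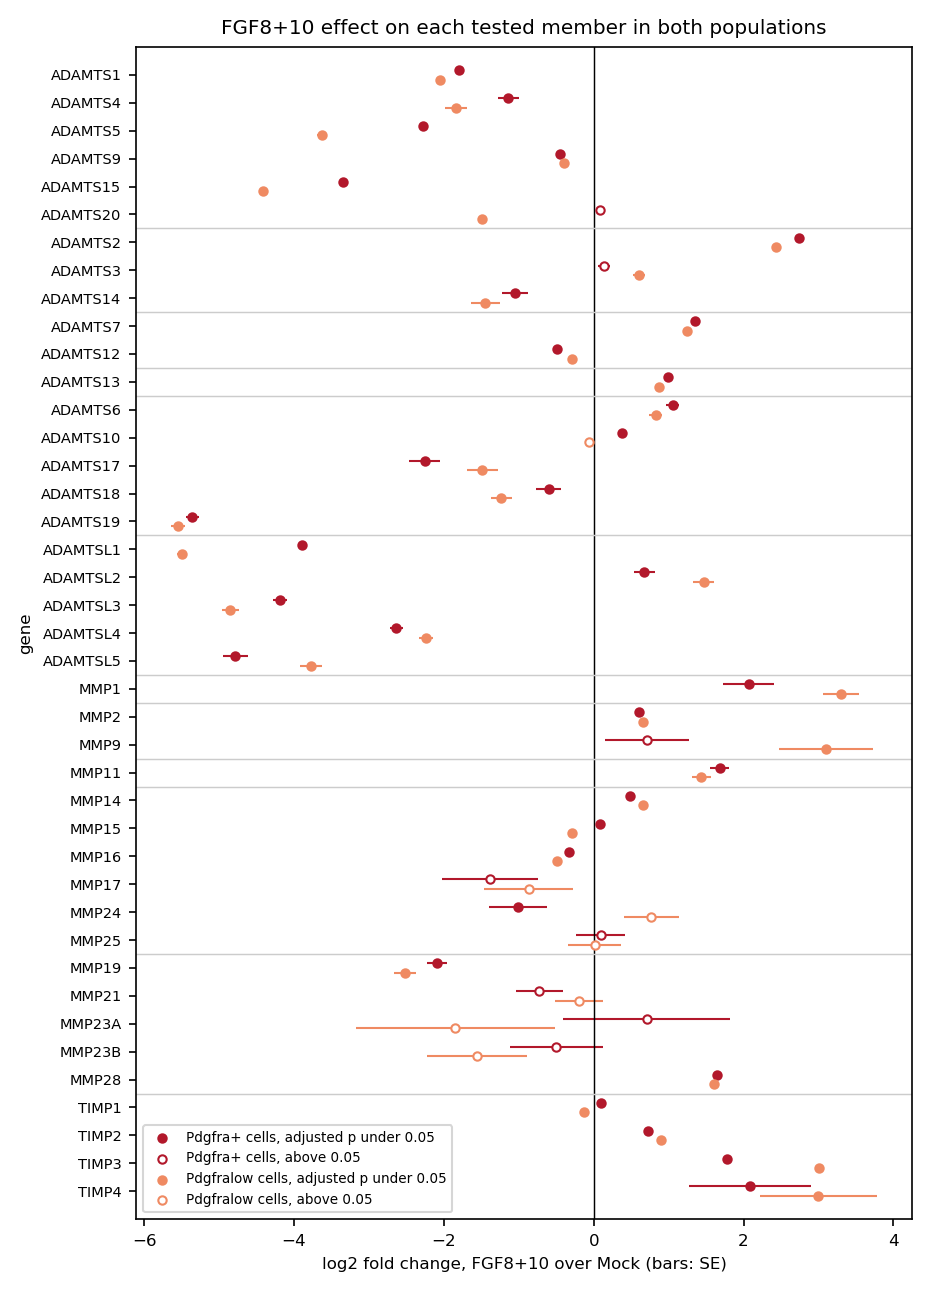
Log2 fold change of each of the 41 tested members, FGF8+10 over Mock, in Pdgfra+ (dark) and Pdgfralow (light) cells, with SE bars and filled points for an adjusted p under 0.05. The 6 hyalectan-cleaving enzymes lie at or left of 0 apart from ADAMTS20 in Pdgfra+ cells (0.08), while MMP2, MMP14, MMP28, TIMP2 and TIMP3 lie right of it in both populations.

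The order of the levels within a group, compared per kilobase of exon, differed between treated and Mock cells. In FGF8+10 Pdgfra+ cells the highest were MMP2 (246 CPM per kilobase), TIMP1 (148), MMP14 (120), ADAMTS1 (112) and TIMP3 (99.1). FGF8+10 Pdgfralow cells had MMP2 (220 CPM per kilobase), TIMP3 (142), MMP14 (121), TIMP1 (114) and ADAMTS1 (74.2) on top. Mock Pdgfra+ cells had ADAMTS1 first (389 CPM per kilobase), then MMP2 (162), TIMP1 (138), ADAMTS15 (100.1) and ADAMTS9 (89.2). Mock Pdgfralow cells had ADAMTS1 first as well (307 CPM per kilobase), then MMP2 (139), TIMP1 (125), ADAMTS15 (81.6) and MMP14 (76.3). MMP2 thus headed the treated groups and ADAMTS1 the Mock groups. Neighbours in these orders did not overlap between the 2 libraries of a group.

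**Figure D2:**
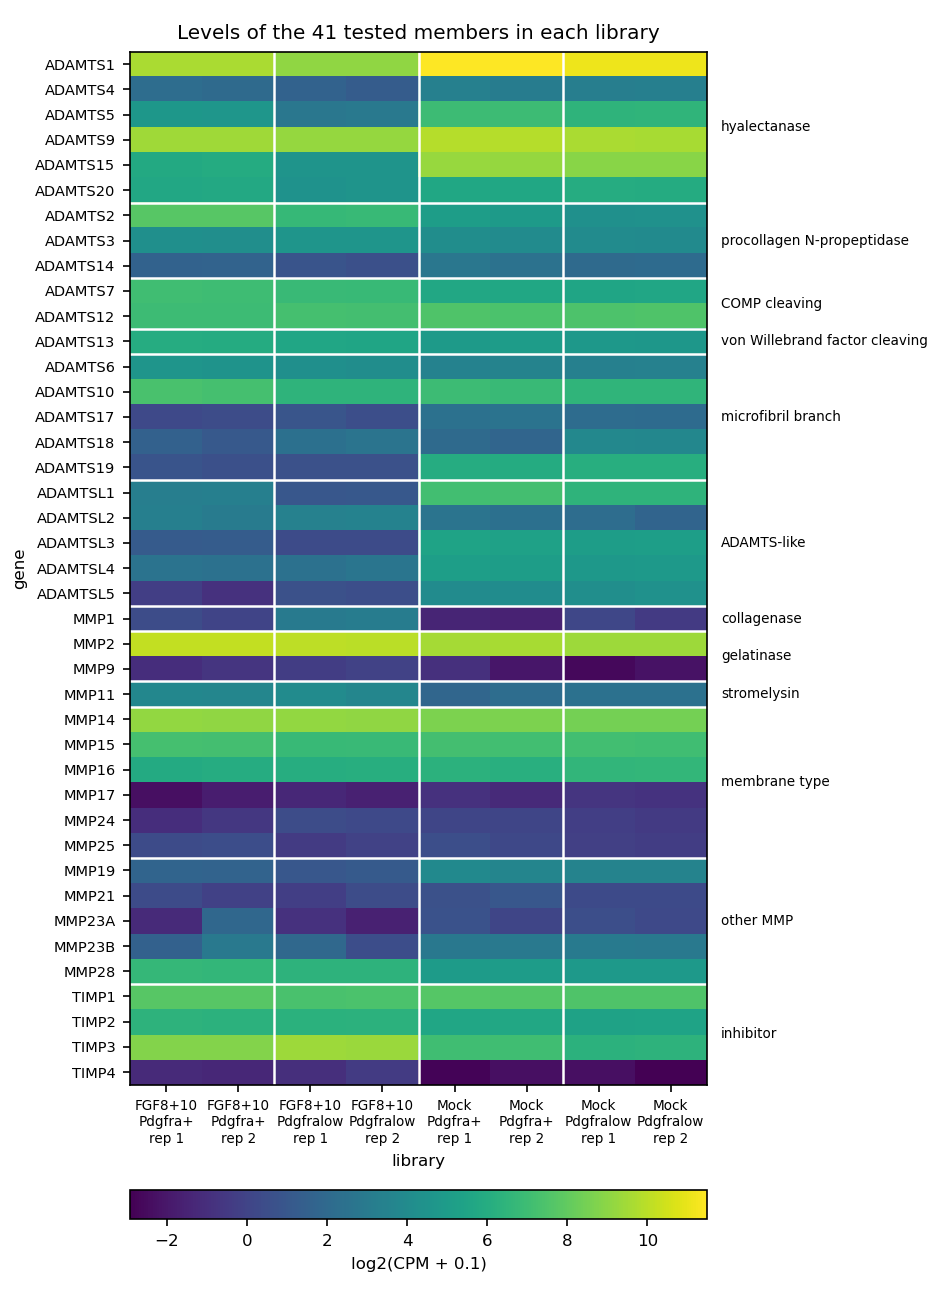
Heat map of log2(CPM + 0.1) for the 41 tested members (rows, grouped by role) in the 8 libraries (columns, FGF8+10 left of Mock). ADAMTS1, ADAMTS9, MMP2 and MMP14 are bright in every library, ADAMTS15, ADAMTS19 and ADAMTSL1 are brighter in the Mock columns, and TIMP3 and ADAMTS2 in the FGF8+10 columns.

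Summed per family, the levels moved in different directions. The 19 ADAMTS genes together had 297 and 294 CPM per kilobase in FGF8+10 Pdgfra+ libraries, against 678 and 666 in Mock Pdgfra+ libraries. In Pdgfralow cells the ADAMTS sum was 210 and 212 CPM per kilobase with FGF8+10, against 548 and 548 with Mock. ADAMTS1 was 37.5% and 37.9% of this sum in FGF8+10 Pdgfra+ libraries, against 57.8% and 58.1% in Mock Pdgfra+ libraries. The MMP sum went the other way. The 24 MMP genes had 448 and 446 CPM per kilobase in FGF8+10 Pdgfra+ libraries and 308 and 307 in Mock Pdgfra+ libraries. In Pdgfralow cells they had 411 and 406 CPM per kilobase with FGF8+10, against 274 and 274 with Mock. MMP2 made up 50.6% to 55.1% of the MMP sum in the 8 libraries. The 4 TIMP genes had 262 and 262 CPM per kilobase in FGF8+10 Pdgfra+ libraries, against 178 and 174 in Mock Pdgfra+ libraries. In Pdgfralow libraries the TIMP sum was 271 and 271 CPM per kilobase with FGF8+10 and 150 and 151 with Mock. The ratio of the TIMP sum to the MMP sum was 0.66 and 0.668 in FGF8+10 Pdgfralow libraries and 0.547 and 0.551 in Mock Pdgfralow libraries, and 0.586 and 0.588 in FGF8+10 Pdgfra+ libraries and 0.58 and 0.568 in Mock Pdgfra+ libraries. No test was run on these sums, and an RNA ratio says nothing of active enzyme.

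**Figure D3:**
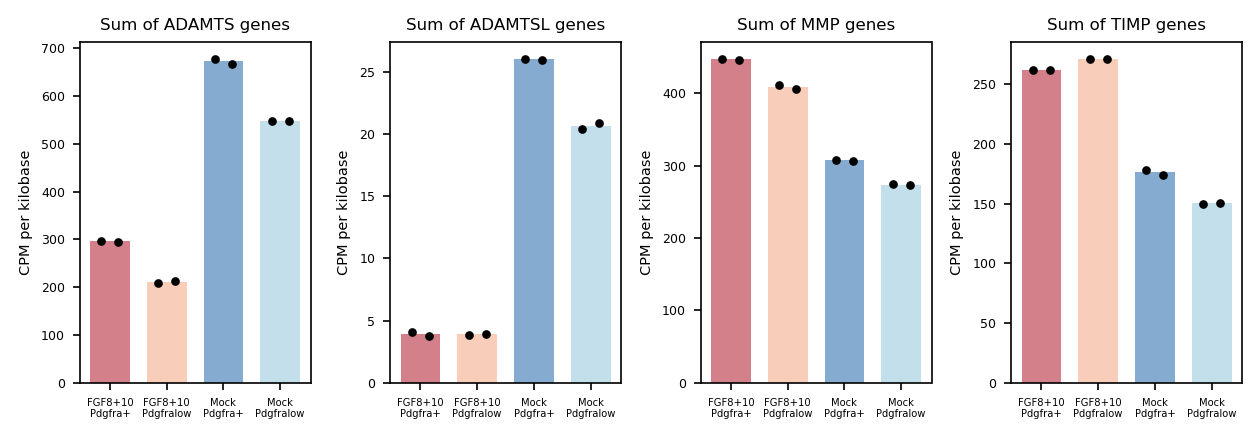
Summed level (CPM per kilobase of exon) of the ADAMTS, ADAMTSL, MMP and TIMP genes in the 4 groups, bars for the mean of 2 libraries and points for the libraries. The ADAMTS and ADAMTSL sums are lower, and the MMP and TIMP sums higher, in both FGF8+10 groups than in the Mock group of the same population.

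The 11 untested members had few or no counts. ADAMTS16, with 48 counts over the 8 libraries, and ADAMTS8, with 44, had the most, and neither had more than 10 in a library. MMP7, MMP26 and MMP27 had none. A count of 0 in the pair of libraries of a group allows up to 0.0443 to 0.0646 CPM, taking the floor of 6 counts over the group and counting error only. Of these 11 genes, 8 lie in the MMP gene cluster of chromosome 11 (102520508 to 102955732, GRCh38, the coordinates of the count table), a run of 435 kb with 9 members on the minus strand. MMP1, the interstitial collagenase, is the only tested member of that cluster and had 1183 counts over the 8 libraries, while its 8 neighbours had 46 together. The collagenases MMP8 and MMP13, the stromelysins MMP3 and MMP10, the matrilysin MMP7, the macrophage elastase MMP12 and the enamel protease MMP20 are among these neighbours.

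The promoters of the 6 untested members with a window differed in base composition from those of the tested ones. RefSeq (GRCh38.p14) gave the 250 bases before the gene start for 32 of the 52 members, in 33 windows. The other 5 untested members (ADAMTS8, ADAMTS16, MMP3, MMP12 and MMP13) and MMP1, the tested gene of the chromosome 11 cluster, are not among them. Other tested members without a window are ADAMTS1, ADAMTS4, ADAMTS5, ADAMTS9, ADAMTS15, MMP2, MMP9, MMP16, MMP17, MMP19, MMP23A, MMP25, MMP28 and TIMP2. The windows of tested members thus leave out several of the most abundant genes. The 27 windows of tested members held 52.4% to 83.6% G and C (median 73.2%), and the 6 windows of untested members (MMP7, MMP8, MMP10, MMP20, MMP26 and MMP27) held 32.8% to 41.6% (median 35.4%), so the ranges did not overlap. Of these 6 genes, 5 lie in the chromosome 11 cluster. The median over all 35116 promoters was 58%, and 16.4% of them were at or below 41.6%. A GC box (GGGCGG, either strand) was found in 23 of 27 windows of tested members, in 0 of 6 of untested members and in 42.6% of all promoters. A TATA box (TATAAA, either strand) was in 3 of the 27 and in 5 of the 6, and in 10.7% of all promoters. The AP-1 motif (TGAGTCA, either strand), known from collagenase and stromelysin promoters, was in 0 of the 27, in 1 of the 6 (MMP7) and in 4.2% of all promoters. A PEA3-type ETS motif (AGGAAG, either strand) was in 5 of the 27, in 1 of the 6 and in 28.7% of all promoters. These matches describe letters in the window and are not binding sites. The following 6 windows are printed 5′ to 3′ to show the contrast, 4 of tested members (TIMP3 at chr22:32801455-32801704, plus strand, ADAMTS2 at chr5:179345462-179345711, minus strand, ADAMTS19 at chr5:129460048-129460297, plus strand, and MMP14 at chr14:22836335-22836584, plus strand) and 2 of untested members (MMP10 at chr11:102780629-102780878, minus strand, and MMP7 at chr11:102530748-102530997, minus strand). Capitals mark GC boxes, TATA boxes and the AP-1 motif.
TIMP3: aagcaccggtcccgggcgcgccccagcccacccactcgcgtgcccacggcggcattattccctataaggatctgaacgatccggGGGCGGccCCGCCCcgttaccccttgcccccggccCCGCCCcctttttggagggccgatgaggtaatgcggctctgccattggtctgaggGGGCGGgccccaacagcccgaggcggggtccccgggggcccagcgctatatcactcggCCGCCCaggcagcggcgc
ADAMTS2: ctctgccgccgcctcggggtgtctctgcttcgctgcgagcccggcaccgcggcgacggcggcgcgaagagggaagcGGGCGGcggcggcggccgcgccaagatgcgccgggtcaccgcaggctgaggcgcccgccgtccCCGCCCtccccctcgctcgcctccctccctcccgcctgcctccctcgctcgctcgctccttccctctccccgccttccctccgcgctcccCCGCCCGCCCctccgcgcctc
ADAMTS19: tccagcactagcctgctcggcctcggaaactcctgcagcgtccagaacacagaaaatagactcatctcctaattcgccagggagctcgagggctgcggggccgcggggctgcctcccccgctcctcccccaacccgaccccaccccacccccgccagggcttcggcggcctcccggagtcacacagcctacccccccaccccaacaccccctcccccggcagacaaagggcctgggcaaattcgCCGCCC
MMP14: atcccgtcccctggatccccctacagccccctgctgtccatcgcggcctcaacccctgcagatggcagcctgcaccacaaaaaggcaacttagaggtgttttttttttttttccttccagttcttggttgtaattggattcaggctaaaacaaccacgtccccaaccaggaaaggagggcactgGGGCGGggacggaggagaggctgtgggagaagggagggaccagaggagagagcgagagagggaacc
MMP10: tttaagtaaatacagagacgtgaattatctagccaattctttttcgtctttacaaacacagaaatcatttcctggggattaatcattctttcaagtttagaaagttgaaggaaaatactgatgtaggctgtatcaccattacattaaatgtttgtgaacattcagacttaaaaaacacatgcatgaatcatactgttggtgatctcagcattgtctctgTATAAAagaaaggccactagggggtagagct
MMP7: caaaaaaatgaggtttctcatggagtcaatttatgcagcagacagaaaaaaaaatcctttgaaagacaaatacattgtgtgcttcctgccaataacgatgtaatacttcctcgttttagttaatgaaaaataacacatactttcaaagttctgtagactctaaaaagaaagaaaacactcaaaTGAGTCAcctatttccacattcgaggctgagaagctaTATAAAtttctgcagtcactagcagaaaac
TIMP3 has 5 GC boxes and ADAMTS2 has 4, of which the last 2 overlap. ADAMTS19 has 1 GC box, 6 bases before the RefSeq start, and MMP14 has 1. MMP10 and MMP7 have a TATA box 31 and 30 bases before the RefSeq start, and MMP7 has the AP-1 motif 67 bases before it. The annotation used for counting places the starts of ADAMTS19 (129460281), MMP14 (22836560) and MMP7 (102530750) inside their printed windows.

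**Figure D4:**
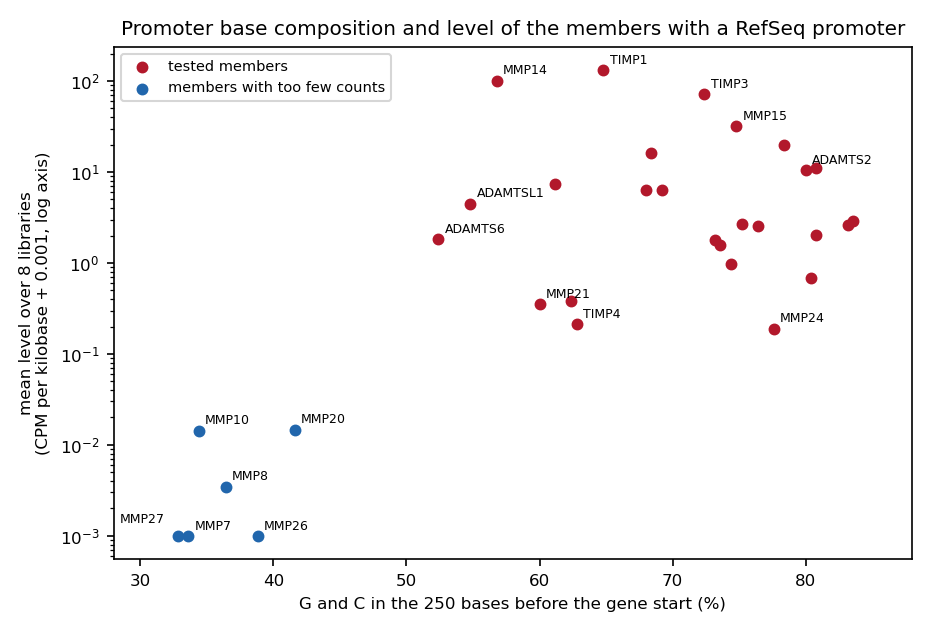
Share of G and C in the 250 bases before the gene start (x axis, percent) against the mean level over the 8 libraries (y axis, CPM per kilobase + 0.001, log scale) for the 32 members with a RefSeq promoter, with the window of higher G and C for ADAMTS10. The 6 members with too few counts lie between 32.8% and 41.6%, left of all tested members.

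The inhibitors rose with FGF8+10, apart from TIMP1, whose changes were small. TIMP3 (chromosome 22, 32801705 to 32863041), which binds the matrix and inhibits ADAMTS and ADAM proteases as well as MMPs, had 456 and 455 CPM in FGF8+10 Pdgfra+ libraries, against 135 and 132 CPM in Mock Pdgfra+ libraries. In Pdgfralow cells it had 667 and 644 CPM with FGF8+10, against 80.8 and 82.7 CPM with Mock. All 4 treated libraries lay above all 4 Mock libraries, and the FGF8+10 Pdgfralow libraries were the highest. The summed endothelial markers, given beside MMP1, were also highest in that group. TEK among them averaged 491 CPM in FGF8+10 Pdgfra+ and 483 CPM in FGF8+10 Pdgfralow cells. In Pdgfra+ cells PECAM1, KDR, TEK and ERG rose with FGF8+10, and TIE1 and CLDN5 fell (log2 -1.22 and -2.06). CDH5 and VWF did not pass there. The log2 fold change of TIMP3 was 1.77 ± 0.026 (SE, adjusted p = 5.94e-43) in Pdgfra+ cells and 3.00 ± 0.027 (adjusted p = 1.64e-51) in Pdgfralow cells, 3.42-fold and 8.01-fold. TIMP3 was 37.8% of the summed TIMP level per kilobase in both FGF8+10 Pdgfra+ libraries and 53.5% and 51.6% in the FGF8+10 Pdgfralow libraries, against 16.4% and 16.5% in Mock Pdgfra+ and 11.7% and 11.9% in Mock Pdgfralow libraries. TIMP1 took 78.1% to 83.3% of that sum in the Mock libraries.

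TIMP2 (chromosome 17, 78852977 to 78925387), the partner of MMP14 in activating pro-MMP2, had 85.1 and 82.0 CPM in FGF8+10 Pdgfra+ libraries, against 48.0 and 53.0 CPM in Mock Pdgfra+ libraries. Among Pdgfralow libraries it had 78.1 and 79.5 CPM with FGF8+10, against 41.9 and 42.5 CPM with Mock. Treated and Mock libraries did not overlap, and the log2 change was 0.73 ± 0.046 in Pdgfra+ and 0.90 ± 0.047 in Pdgfralow cells. TIMP2 shares 10% of its exon bases with other genes. TIMP1 (chromosome X, 47582408 to 47586789), a broad MMP inhibitor, had 213 and 214 CPM in FGF8+10 Pdgfra+ libraries and 203 and 197 CPM in Mock Pdgfra+ libraries. The corresponding Pdgfralow libraries had 162 and 169 CPM with FGF8+10 and 181 and 181 CPM with Mock. The directions were thus opposite, with log2 changes of 0.10 ± 0.029 (adjusted p = 0.00355) and -0.13 ± 0.029 (adjusted p = 0.00014) (1.07-fold and 1.09-fold). Without replicate 2 of the Mock Pdgfra+ group the change in Pdgfra+ cells was 0.08 (adjusted p = 0.0631). When the libraries were scaled by their totals alone, which moves the median of all genes by 0.17 in Pdgfra+ and 0.16 in Pdgfralow cells, the TIMP1 change was 0.27 (adjusted p = 1.98e-11) in Pdgfra+ cells and 0.03 (adjusted p = 0.378) in Pdgfralow cells. TIMP4 (chromosome 3, 12153068 to 12158912) was near the floor, with 23 and 21 counts in FGF8+10 Pdgfra+ libraries, against 2 and 5 counts in Mock Pdgfra+ libraries. It had 22 and 39 counts in FGF8+10 Pdgfralow libraries, against 6 and 2 counts in Mock Pdgfralow libraries. The log2 change of TIMP4 was 2.08 ± 0.81 (adjusted p = 0.0292) in Pdgfra+ and 3.00 ± 0.78 (adjusted p = 0.000993) in Pdgfralow cells, and the call in Pdgfra+ cells was lost when either FGF8+10 library or replicate 1 of Mock was left out (adjusted p = 0.0845, 0.0589 and 0.165). TIMP4 lies within SYN2 and shares 14.2% of its exon bases with it, and the counts were made without regard to strand.

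The gelatinase MMP2 and its activator MMP14 rose, and both were already abundant in Mock cells. MMP2 (chromosome 16, 55389700 to 55506691), which cuts denatured collagen and type IV collagen, had 1161 and 1153 CPM in FGF8+10 Pdgfra+ libraries, against 757 and 765 CPM in Mock Pdgfra+ libraries. In the 4 Pdgfralow libraries the values were 1039 and 1035 CPM with FGF8+10, against 653 and 659 CPM with Mock. MMP2 was higher in every treated library than in any Mock library, by 0.60 ± 0.019 (log2, adjusted p = 1.73e-29) in Pdgfra+ and 0.66 ± 0.019 (adjusted p = 4.23e-31) in Pdgfralow cells. MMP14 (chromosome 14, 22836560 to 22849041), the membrane-type enzyme needed for collagen remodelling in mice, had 563 and 548 CPM in FGF8+10 Pdgfra+ libraries, against 398 and 398 CPM in Mock Pdgfra+ libraries. Its Pdgfralow libraries had 564 and 554 CPM with FGF8+10, against 355 and 351 CPM with Mock. Here too the treated and Mock libraries did not overlap, and the changes were 0.48 ± 0.023 and 0.66 ± 0.023. The other membrane-type genes differed from MMP14. MMP16 fell in both populations (log2 -0.33 ± 0.044 in Pdgfra+ and -0.49 ± 0.043 in Pdgfralow cells). MMP15 was higher in Pdgfra+ cells (log2 0.08 ± 0.033, adjusted p = 0.0402) and lower in Pdgfralow cells (-0.29 ± 0.033). The MMP15 call in Pdgfra+ cells was lost without replicate 1 of the FGF8+10 group (0.06, adjusted p = 0.299) or replicate 2 of the Mock group (0.05, adjusted p = 0.311), and the change was 0.13 without replicate 2 of the FGF8+10 group. It did not pass in DESeq2 either (0.09, adjusted p = 0.0525), and was 0.25 (adjusted p = 6.24e-09) with the libraries scaled by their totals alone. MMP24, at 0.385 to 1.24 CPM in the 8 libraries, fell in Pdgfra+ cells (-1.01 ± 0.39, adjusted p = 0.0251) and was at 0.77 ± 0.37 (adjusted p = 0.0725) in Pdgfralow cells. Its call in Pdgfra+ cells was lost without replicate 1 of the FGF8+10 group (-0.74, adjusted p = 0.218) and without either Mock library (adjusted p = 0.085 and 0.073). It shares 22.1% of its exon bases with overlapping genes, among them MMP24OS on the other strand. MMP17 and MMP25, which are anchored by a lipid, passed in neither population. MMP25 shares 30.6% of its exon bases with MMP25-AS1.

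Among the remaining MMPs, the largest rise was in MMP1, the collagenase that starts the cut of fibrillar collagen, at low levels. MMP1 (chromosome 11, 102789401 to 102798160) had 1.24 and 0.942 CPM in FGF8+10 Pdgfra+ libraries, against 0.269 and 0.249 CPM in Mock Pdgfra+ libraries. Pdgfralow cells had 7.65 and 8.61 CPM with FGF8+10, against 1.02 and 0.628 CPM with Mock. The FGF8+10 Pdgfralow libraries stood above all others, and the FGF8+10 Pdgfra+ libraries overlapped the Mock Pdgfralow ones. The log2 change was 2.07 ± 0.34 (adjusted p = 1.35e-06) in Pdgfra+ and 3.30 ± 0.24 (adjusted p = 1.77e-16) in Pdgfralow cells, 4.2-fold and 9.85-fold. MMP9, the other gelatinase, stayed under 1 CPM in all 8 libraries, with 27 and 36 counts in FGF8+10 Pdgfra+ and 38 and 51 counts in FGF8+10 Pdgfralow libraries, against 19 and 7 counts in Mock Pdgfra+ and 4 and 7 counts in Mock Pdgfralow libraries. Its change passed in Pdgfralow cells (3.10 ± 0.62, adjusted p = 3.28e-05) and not in Pdgfra+ cells (0.71 ± 0.56, adjusted p = 0.311). MMP9 shares 18.4% of its exon bases with SLC12A5-AS1, and MMP1 shares 8.14% with WTAPP1. Markers of endothelial cells, which can make both enzymes, stood higher in FGF8+10 Pdgfralow than in Mock Pdgfralow cells. PECAM1 averaged 18.5 CPM in FGF8+10 Pdgfralow and 0.675 CPM in Mock Pdgfralow cells, and CDH5 averaged 19.8 CPM in FGF8+10 Pdgfralow and 1.40 CPM in Mock Pdgfralow cells. Over all 8 endothelial markers, none of them at 0, the sum was 2123 to 2133 CPM in FGF8+10 Pdgfra+, 2551 to 2555 CPM in FGF8+10 Pdgfralow, 1327 to 1340 CPM in Mock Pdgfra+ and 1361 to 1369 CPM in Mock Pdgfralow libraries, most of it KDR and TEK. VWF and CLDN5 averaged 0.969 and 0.865 CPM in FGF8+10 Pdgfralow cells. The part of endothelial cells in the MMP1, MMP9 and TIMP3 results was not tested. Blood and macrophage markers summed to 0.307 to 0.848 CPM in FGF8+10 Pdgfralow libraries and to at most 0.525 CPM in the other groups. MMP9 itself averaged 0.793 CPM in FGF8+10 Pdgfralow cells, and the part of blood cells in its result was not tested.

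MMP28 (epilysin, chromosome 17, 35756249 to 35795707) and MMP11 (stromelysin 3, chromosome 22, 23768226 to 23784316) rose in both populations. MMP28 had 100.2 and 100.0 CPM in FGF8+10 Pdgfra+ libraries, against 31.2 and 33.0 CPM in Mock Pdgfra+ libraries. The corresponding Pdgfralow libraries had 84.8 and 83.3 CPM with FGF8+10, against 27.7 and 27.7 CPM with Mock. The treated libraries were all higher, by 1.64 ± 0.047 and 1.60 ± 0.047 on the log2 scale. MMP11, known from the stroma of remodelling tissues, had 13.6 and 12.7 CPM in FGF8+10 Pdgfra+ libraries, against 3.52 and 4.65 CPM in Mock Pdgfra+ libraries. In the Pdgfralow population the values were 16.3 and 12.9 CPM with FGF8+10, against 5.47 and 5.29 CPM with Mock. These libraries did not overlap by treatment, and the changes were 1.68 ± 0.13 and 1.44 ± 0.12. MMP19 fell, with log2 changes of -2.1 ± 0.14 in Pdgfra+ and -2.51 ± 0.15 in Pdgfralow cells. It shares 17.6% of its exon bases with TMEM198B. MMP21, which acts in left-right patterning, MMP23A and MMP23B passed in neither population. MMP23A and MMP23B are near-identical copies 64.7 kb apart on chromosome 1, and reads that fit both were dropped. MMP23A had 0.34 and 3.69 CPM in the FGF8+10 Pdgfra+ libraries, so 1 library decides its change: it was 0.71 ± 1.1 (adjusted p = 0.661) with both and -1.84 (adjusted p = 0.00296) without replicate 2. Summed with MMP23B, the pair had a log2 change of -0.25 (adjusted p = 0.818) in Pdgfra+ and -1.60 (adjusted p = 0.163) in Pdgfralow cells.

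The hyalectan-cleaving enzymes, which release versican and aggrecan fragments, were lower with FGF8+10. Of 6 tested, 5 fell in Pdgfra+ cells and 6 in Pdgfralow cells, and none rose, where 25.1% and 27.7% of all genes tested fell. Their summed level, with the untested ADAMTS8, was 196 and 197 CPM per kilobase in FGF8+10 Pdgfra+ libraries, against 602.6 and 595.5 in Mock Pdgfra+ libraries. In Pdgfralow libraries it was 136.5 and 139.1 CPM per kilobase with FGF8+10, against 481 and 481 with Mock. ADAMTS1 (chromosome 21, 26835755 to 26845409), which cuts versican and aggrecan, had 814 and 816 CPM in FGF8+10 Pdgfra+ libraries, against 2858 and 2828 CPM in Mock Pdgfra+ libraries. Within the Pdgfralow population it had 536 and 548 CPM with FGF8+10, against 2240 and 2246 CPM with Mock. No treated library came near a Mock library, and the log2 change was -1.80 ± 0.018 (adjusted p = 1.43e-49) in Pdgfra+ and -2.05 ± 0.018 (adjusted p = 1.38e-51) in Pdgfralow cells. ADAMTS5 (chromosome 21, 26917922 to 26967088), the main aggrecanase of mouse cartilage, lies 72.5 kb from ADAMTS1. It had 26.1 and 25.3 CPM in FGF8+10 Pdgfra+ libraries, against 126 and 125 CPM in Mock Pdgfra+ libraries. Its Pdgfralow libraries had 6.94 and 7.35 CPM with FGF8+10, against 87.3 and 90.1 CPM with Mock. Both treated groups were below both Mock groups, with changes of -2.28 ± 0.047 and -3.63 ± 0.057.

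ADAMTS15 (chromosome 11, 130448645 to 130476645), another versican-cleaving enzyme, had 57.4 and 61.1 CPM in FGF8+10 Pdgfra+ libraries, against 610 and 592 CPM in Mock Pdgfra+ libraries. In Pdgfralow libraries it had 23.1 and 22.9 CPM with FGF8+10, against 488 and 493 CPM with Mock. The groups were far apart, with falls of 10.1-fold (log2 -3.34 ± 0.029, adjusted p = 8.21e-52) and 21.3-fold (-4.41 ± 0.033, adjusted p = 1.1e-54). ADAMTS8, 20 kb away on the same chromosome, had too few counts in every group. ADAMTS9, which also serves secretory transport and ciliogenesis, fell least of the 5 that fell in both populations, with -0.46 ± 0.020 in Pdgfra+ and -0.40 ± 0.020 in Pdgfralow cells. ADAMTS4, the first aggrecanase described, fell as well (-1.14 ± 0.14 and -1.84 ± 0.15). ADAMTS20, known from melanoblast migration in mice, had 53.2 and 53.6 CPM in FGF8+10 Pdgfra+ libraries and 50.5 and 50.4 CPM in Mock Pdgfra+ libraries (log2 0.08 ± 0.050, adjusted p = 0.183). In Pdgfralow cells it fell to 21.5 and 23 CPM with FGF8+10, against 63.2 and 62.3 CPM with Mock (-1.49 ± 0.053, adjusted p = 9.15e-28). Most of their substrate genes fell too: of 6 hyalectan and link protein genes, 4 were lower and 1 higher in each population. Over all genes tested, 25.1% fell in Pdgfra+ and 27.7% in Pdgfralow cells. VCAN (versican) averaged 1301 CPM in FGF8+10 Pdgfra+ and 7107 CPM in Mock Pdgfra+ cells, a log2 change of -2.45 there and of -2.90 in Pdgfralow cells. ACAN (aggrecan) had log2 changes of -4.15 and -4.01, and HAPLN1, a link protein, of -2.39 and -0.72.

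The procollagen propeptidases split by gene. ADAMTS2 (chromosome 5, 179110853 to 179345461), which removes the amino propeptide of type I and III procollagen and is mutated in a dermatosparactic form of Ehlers-Danlos syndrome, had 216 and 214 CPM in FGF8+10 Pdgfra+ libraries, against 33.9 and 30.6 CPM in Mock Pdgfra+ libraries. The corresponding Pdgfralow libraries had 106 and 112 CPM with FGF8+10, against 19.7 and 20.6 CPM with Mock. The order was the same in both treatments, Pdgfra+ above Pdgfralow, and treated libraries lay above all Mock libraries. The log2 change of ADAMTS2 was 2.74 ± 0.043 (adjusted p = 1.03e-41) in Pdgfra+ and 2.43 ± 0.045 (adjusted p = 5.35e-39) in Pdgfralow cells, 6.66-fold and 5.40-fold. ADAMTS14 fell (-1.05 ± 0.17 and -1.45 ± 0.19). ADAMTS3, which also activates VEGFC, was higher in Pdgfralow cells (0.60 ± 0.077) and was at 0.14 ± 0.079 (adjusted p = 0.139) in Pdgfra+ cells. The 6 fibrillar procollagen genes listed as substrates were all lower with FGF8+10 in both populations, among them COL1A1 (log2 -2.00 in Pdgfra+ and -2.43 in Pdgfralow cells) and COL3A1 (-1.35 and -1.83). ADAMTS2 RNA thus rose where the RNA of its substrates fell. Of 5 tested genes of the astacin-type procollagen C-propeptidases and their enhancers, 0 rose in either population and 3 fell in Pdgfra+ and 4 in Pdgfralow cells, TLL1 most (log2 -4.93 and -5.28). The background to these substrate and enzyme counts is that 25.1% of all genes tested fell in Pdgfra+ and 27.7% in Pdgfralow cells.

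In the remaining catalytic ADAMTS genes, the microfibril branch held the largest fall of any member. ADAMTS19 (chromosome 5, 129460281 to 129738683), linked to heart valve disease, had 1.64 and 1.44 CPM in FGF8+10 Pdgfra+ libraries, against 64.7 and 61.8 CPM in Mock Pdgfra+ libraries. Among Pdgfralow libraries it had 1.49 and 1.5 CPM with FGF8+10, against 70.4 and 69.7 CPM with Mock. It was low in all 4 treated libraries and high in all 4 Mock libraries, 40.9-fold lower in Pdgfra+ (log2 -5.36 ± 0.086, adjusted p = 2.53e-41) and 46.8-fold lower in Pdgfralow cells (-5.55 ± 0.089, adjusted p = 1.55e-41). The summed cardiac muscle markers also differed by treatment, at 3.98 to 4.66 CPM in FGF8+10 Pdgfra+ and 4.13 to 4.3 CPM in FGF8+10 Pdgfralow libraries, against 62.3 to 69.6 CPM in Mock Pdgfra+ and 53.3 to 54.1 CPM in Mock Pdgfralow libraries. Of the 6 markers 4 were tested, none was at 0 in all libraries, and TNNT2 made up most of the Mock sums. TNNT2 averaged 0.738 CPM in FGF8+10 Pdgfra+ and 0.217 CPM in FGF8+10 Pdgfralow cells, against 62.0 CPM in Mock Pdgfra+ and 47.2 CPM in Mock Pdgfralow cells. TNNT2 and MYL7 were lower with FGF8+10 in both populations. ACTN2 was lower in Pdgfralow cells (log2 -1.01) and at -0.19 (adjusted p = 0.59) in Pdgfra+ cells, and NKX2-5 passed in neither, with log2 changes of 0.29 (adjusted p = 0.338) in Pdgfra+ and 0.27 (adjusted p = 0.328) in Pdgfralow cells. Their part in the ADAMTS19 result was not tested. ADAMTS19 shares 5.27% of its exon bases with other genes, ADAMTS19-AS1 among them. ADAMTS10, whose loss causes Weill-Marchesani syndrome, had 162 and 150 CPM in FGF8+10 Pdgfra+ libraries, against 124 and 116 CPM in Mock Pdgfra+ libraries, without overlap (0.38 ± 0.036, adjusted p = 1.28e-12). In the 4 Pdgfralow libraries the values were 87.6 and 88.7 CPM with FGF8+10 and 92.5 and 91.4 CPM with Mock (-0.06 ± 0.037, adjusted p = 0.166), which became 0.10 (adjusted p = 0.0197) with library totals alone. ADAMTS6, needed for heart outflow development in mice, rose in both populations (1.06 ± 0.088 and 0.83 ± 0.088), and ADAMTS17, mutated in a Weill-Marchesani-like syndrome, fell in both (-2.26 ± 0.21 and -1.49 ± 0.20). ADAMTS18, known from eye development, had 2.89 and 2.03 CPM in FGF8+10 Pdgfra+ libraries, against 4.14 and 3.34 CPM in Mock Pdgfra+ libraries. Its Pdgfralow libraries stood higher, at 5.26 and 6.17 CPM with FGF8+10, against 13.8 and 13.2 CPM with Mock. The change of ADAMTS18 was -0.60 ± 0.17 in Pdgfra+ cells, -0.36 (adjusted p = 0.137) without replicate 2 of the FGF8+10 Pdgfra+ group and -0.44 (adjusted p = 0.0703) without replicate 1 of the Mock Pdgfra+ group, and -1.23 ± 0.14 in Pdgfralow cells.

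ADAMTS13, which cuts von Willebrand factor, and the cartilage oligomeric matrix protein (COMP) cleaving pair ADAMTS7 and ADAMTS12 complete the catalytic genes. ADAMTS13 (chromosome 9, 133414358 to 133459402) had 65.0 and 60.5 CPM in FGF8+10 Pdgfra+ libraries, against 30.7 and 32.3 CPM in Mock Pdgfra+ libraries. Its Pdgfralow libraries had 48.3 and 47.6 CPM with FGF8+10, against 26.7 and 25.7 CPM with Mock. Treated libraries were above Mock libraries in both populations, by 0.99 ± 0.055 and 0.87 ± 0.056. ADAMTS12 (chromosome 5, 33523535 to 33892019) had 124 and 126 CPM in FGF8+10 Pdgfra+ libraries, against 180 and 170 CPM in Mock Pdgfra+ libraries. Pdgfralow cells had 149 and 146 CPM with FGF8+10, against 179 and 182 CPM with Mock. It fell in both (-0.49 ± 0.031 and -0.29 ± 0.031), while ADAMTS7 rose, by 1.35 ± 0.040 and 1.25 ± 0.040. ADAMTS7 has pseudogene copies (ADAMTS7P1, ADAMTS7P3 and ADAMTS7P4). Reads that map to several places were left out, so its level is uncertain. All 3 copies were tested. ADAMTS7P3 fell (log2 -3.11 in Pdgfra+ and -3.12 in Pdgfralow cells). ADAMTS7P1 was higher in Pdgfralow cells (adjusted p = 0.000527), with 19 and 14 counts with FGF8+10, against 1 and 0 counts with Mock, and did not pass in Pdgfra+ cells (adjusted p = 0.0654), with 17 and 35 counts with FGF8+10, against 2 and 8 counts with Mock. ADAMTS7P4, with at most 15 counts in a library, passed in neither population.

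The non-catalytic ADAMTSL genes fell, with 1 exception. Of 5 tested, 4 were lower and 1 higher in each population. Over all genes tested, 25.1% fell and 25.8% rose in Pdgfra+ cells, and 27.7% fell and 27.9% rose in Pdgfralow cells. The ADAMTSL sum was 4.11 and 3.73 CPM per kilobase in FGF8+10 Pdgfra+ libraries, against 26.05 and 25.98 in Mock Pdgfra+ libraries. ADAMTSL1 (punctin, chromosome 9, 17906563 to 18910950) had 9.31 and 9.80 CPM in FGF8+10 Pdgfra+ libraries, against 140.3 and 143 CPM in Mock Pdgfra+ libraries. In the Pdgfralow population the values were 1.89 and 1.99 CPM with FGF8+10, against 88.7 and 86.9 CPM with Mock. The 4 groups did not overlap, and the falls were 14.8-fold (log2 -3.89 ± 0.053, adjusted p = 3.35e-44) and 45.1-fold (-5.50 ± 0.071, adjusted p = 3.65e-45). ADAMTSL3, a relative of ADAMTSL1, had 2.24 and 2.34 CPM in FGF8+10 Pdgfra+ libraries, against 42.6 and 40.6 CPM in Mock Pdgfra+ libraries. The corresponding Pdgfralow libraries had 1.23 and 1.18 CPM with FGF8+10, against 34.0 and 35.4 CPM with Mock. Both treated groups were far below both Mock groups (-4.18 ± 0.096 and -4.85 ± 0.11). ADAMTSL5 had 0.74 and 0.456 CPM in FGF8+10 Pdgfra+ libraries, against 16.2 and 16.8 CPM in Mock Pdgfra+ libraries. Within the Pdgfralow population it had 1.49 and 1.38 CPM with FGF8+10, against 18.5 and 20.8 CPM with Mock. Again no library overlapped by treatment, with changes of -4.78 ± 0.16 and -3.77 ± 0.14. ADAMTSL4, which anchors the eye lens through microfibrils, had 5.85 and 5.40 CPM in FGF8+10 Pdgfra+ libraries, against 35.1 and 34.7 CPM in Mock Pdgfra+ libraries. Its Pdgfralow libraries had 5.49 and 6.24 CPM with FGF8+10, against 27.2 and 28.4 CPM with Mock. The changes were -2.63 ± 0.089 and -2.24 ± 0.090, and 14.4% of its exon bases are shared with other genes. ADAMTSL2, mutated in geleophysic dysplasia, was the exception, rising by 0.68 ± 0.14 in Pdgfra+ and by 1.47 ± 0.14 in Pdgfralow cells. Among 6 microfibril genes that ADAMTSL proteins are tied to, 3 rose and 3 fell in Pdgfra+ cells and 2 rose and 4 fell in Pdgfralow cells. FBN1 (fibrillin 1) averaged 4965 CPM in FGF8+10 Pdgfra+ and 881 CPM in Mock Pdgfra+ cells and rose by 2.49 there and by 2.78 in Pdgfralow cells, on the log2 scale.

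**Figure D5:**
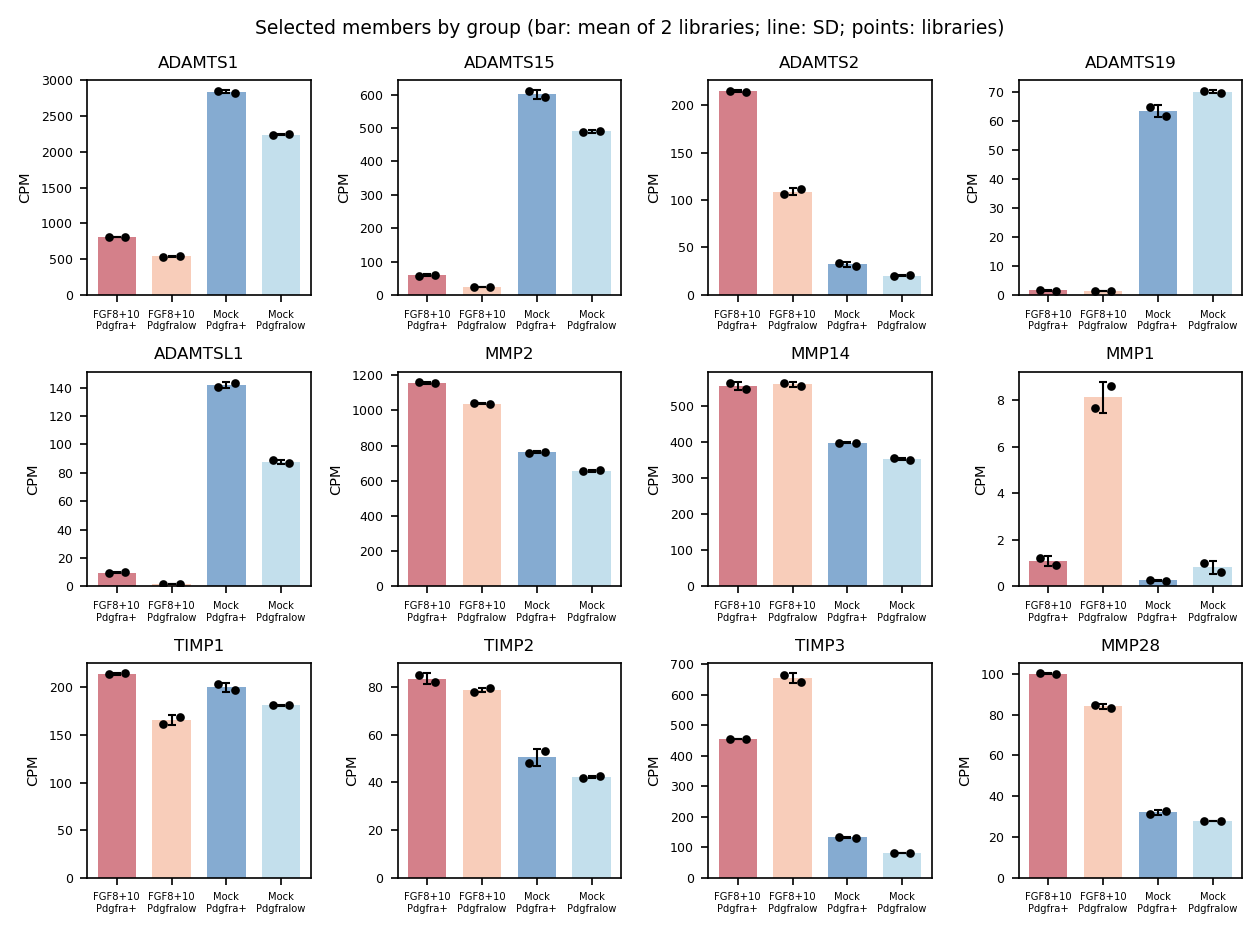
CPM of selected members in the 4 groups, bars for the mean of 2 libraries, lines for the SD and points for the libraries, on linear axes from 0. ADAMTS1, ADAMTS15, ADAMTS19 and ADAMTSL1 are lower, and ADAMTS2, MMP2, MMP14, MMP28, TIMP2 and TIMP3 higher, in both FGF8+10 groups, while MMP1 stands out in FGF8+10 Pdgfralow cells (7.65 and 8.61 CPM).

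Pdgfra+ and Pdgfralow cells differed less than treated and Mock cells did, and more members were higher in Pdgfra+ cells. With FGF8+10, 27 of 41 members passed, 19 higher and 8 lower in Pdgfra+ than in Pdgfralow cells. Of all genes tested 41.4% passed, 19.6% higher and 21.7% lower. At least 2-fold differences were found for 8 members, where 6.38% of all genes had them. The 6 tested hyalectan-cleaving enzymes were all higher in Pdgfra+ cells, with log2 differences of 0.22 to 1.85, and with Mock 4 were higher, ADAMTS20 was lower (-0.31) and ADAMTS4 did not pass (0.003). ADAMTSL1 (2.30 ± 0.092, adjusted p = 5.06e-25), ADAMTS5 (1.85 ± 0.062) and ADAMTS15 (1.36 ± 0.036) had the largest differences among the members called higher. MMP1 differed most of those that passed and was lower in Pdgfra+ cells (-2.89 ± 0.23, adjusted p = 7.82e-15). TIMP3 was lower in Pdgfra+ cells (-0.52 ± 0.024), as was MMP24 (-1.28 ± 0.38, adjusted p = 0.00469), whose call was lost without replicate 1 of the FGF8+10 Pdgfra+ group (-1.02, adjusted p = 0.0883). With Mock, 25 of 41 passed, 19 higher and 6 lower, against 25.8% of all genes, 12.4% higher and 13.4% lower. At least 2-fold, there were 2 members, against 3.88% of all genes. ADAMTS18 (-1.85 ± 0.15, adjusted p = 7.18e-14) and MMP1 (-1.66 ± 0.36, adjusted p = 0.000301) were these 2, both lower in Mock Pdgfra+ than in Mock Pdgfralow cells. TIMP3 was higher in Mock Pdgfra+ cells (0.70 ± 0.028), as were ADAMTSL1 (0.69 ± 0.043) and ADAMTS2 (0.68 ± 0.051). Markers of other cell types differed between the populations as well. The 5 epithelial markers summed to 246 CPM in FGF8+10 Pdgfra+ libraries and 958 to 977 CPM in FGF8+10 Pdgfralow libraries, and to 262 to 263 CPM in Mock Pdgfra+ and 603 to 605 CPM in Mock Pdgfralow libraries, nearly all of it the keratins KRT8 and KRT18. The more specific EPCAM and CDH1 averaged 0.0359 to 1.2 CPM in the 4 groups, and neither passed between the populations with FGF8+10 (adjusted p = 0.81 and 0.621) or with Mock (adjusted p = 0.468 and 0.217). The 4 mesothelial markers, none at 0 in all libraries, summed to 225 to 229 CPM in FGF8+10 Pdgfra+ and 324 to 334 CPM in FGF8+10 Pdgfralow libraries, and to 402 to 404 CPM in Mock Pdgfra+ and 539 to 545 CPM in Mock Pdgfralow libraries, nearly all of it KRT19. UPK3B, a defining mesothelial gene, averaged 0.367 CPM in Mock Pdgfra+ and 14 CPM in Mock Pdgfralow cells, while WT1 and MSLN stayed under 0.4 CPM in every group. The part of epithelial or mesothelial cells in these differences was not tested. The list of limb mesenchyme markers includes PDGFRA, on which the cells were sorted, and MSX1, the gene of the reporter. Among its other members PRRX1, HAND2 and TWIST1 were higher in Pdgfra+ than in Pdgfralow cells with either treatment (log2 0.92, 0.45 and 1.19 with FGF8+10, 0.34, 0.15 and 0.25 with Mock). MSX2 was lower in Pdgfra+ cells with either treatment (-0.31 and -0.34), TBX5 passed with neither, and TBX4 was higher with FGF8+10 (1.22) and at 0.03 (adjusted p = 0.673) with Mock.

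The FGF8+10 effect itself differed between the populations for 25 of 41 members, 13 with a more positive effect in Pdgfra+ cells and 12 with a more negative one. Of all genes tested 26% passed this test, 12% more positive and 14% more negative. The difference, Pdgfra+ effect minus Pdgfralow effect, was at least 2-fold for 9 members, against 4.44% of all genes. MMP24 differed by -1.78 ± 0.53 (adjusted p = 0.00907), ADAMTSL1 by 1.60 ± 0.11 (adjusted p = 7.35e-17), ADAMTS20 by 1.57 ± 0.073 (adjusted p = 3.84e-22), ADAMTS5 by 1.35 ± 0.076 (adjusted p = 3.79e-19) and MMP1 by -1.23 ± 0.46 (adjusted p = 0.0426). TIMP3 differed by -1.23 ± 0.037 (adjusted p = 2.89e-29) and ADAMTS15 by 1.07 ± 0.044 (adjusted p = 4.11e-24). Without replicate 1 of the FGF8+10 Pdgfra+ group the MMP24 difference did not pass (-1.51, adjusted p = 0.0637), and the MMP1 difference failed without any of 6 libraries (-0.92 to -1.30, adjusted p = 0.0578 to 0.177), with the counts divided by 2 (adjusted p = 0.0965) and with no filter on low counts (adjusted p = 0.064). The members with a more negative difference numbered 7 without replicate 2 of the FGF8+10 Pdgfra+ group. Thus ADAMTSL1, ADAMTS5 and ADAMTS15 fell further, and TIMP3 rose further, in Pdgfralow cells. For MMP2, MMP28, ADAMTS9, ADAMTS13 and ADAMTS19 the test of this difference was not passed, with differences of -0.06 ± 0.027, 0.04 ± 0.066, -0.06 ± 0.029, 0.12 ± 0.079 and 0.19 ± 0.16.

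Other genes of the same pathways, listed with earlier results of these data known, moved in both directions. Of all genes tested, 25.8% rose and 25.1% fell in Pdgfra+ cells and 27.9% rose and 27.7% fell in Pdgfralow cells, the background to the counts that follow. Of 9 tested genes of furin-type and plasmin activation, which turn pro-MMPs into active enzyme, 3 rose and 3 fell in Pdgfra+ cells and 4 rose and 4 fell in Pdgfralow cells. The plasminogen activators both rose: PLAT (tissue type) averaged 627 CPM in FGF8+10 Pdgfra+ and 219 CPM in Mock Pdgfra+ cells, a log2 change of 1.52, and 2.51 in Pdgfralow cells. PLAU (urokinase) rose by 1.89 and by 2.96. PLG, their substrate, had too few counts to be tested. FURIN, which cuts the propeptide of MMP14 and many ADAMTS enzymes, averaged 427 CPM in FGF8+10 Pdgfra+ and 419 CPM in Mock Pdgfra+ cells (adjusted p = 0.372) and fell by 0.28 in Pdgfralow cells. Of 5 tested genes of other inhibitors and clearance, 1 rose and 3 fell in Pdgfra+ cells and 2 rose and 2 fell in Pdgfralow cells. RECK, a membrane inhibitor of MMPs, rose by 0.23 and by 0.24, and LRP1, the receptor that clears MMPs, ADAMTS enzymes and TIMP3, fell (-0.57 and -0.79). Of 11 ADAM family genes, 5 rose and 4 fell in Pdgfra+ cells and 4 rose and 5 fell in Pdgfralow cells. Among them ADAM28 was lower (-3.14 and -4.29) and ADAM23 higher (2.49 and 3.26). Among 6 tested genes of thrombospondin repeat proteins and their glycosylation, 2 rose and 3 fell in Pdgfra+ cells and 3 rose and 2 fell in Pdgfralow cells. POFUT2, which adds fucose to the repeats of ADAMTS and ADAMTSL proteins, fell (-0.60 and -0.87), while B3GLCT, which extends that fucose, rose by 0.94 and by 1.44. Of 13 AP-1 and ETS factors known to bind MMP promoters, 5 rose and 7 fell in Pdgfra+ cells and 6 rose and 5 fell in Pdgfralow cells. The PEA3-family genes ETV1, ETV4 and ETV5, with ETS1 and ELK3, rose in both populations, while ETS2 fell in both. FOS, FOSB, FOSL2 and JUND fell in both populations. JUN and JUNB fell in Pdgfra+ cells only, and FOSL1 rose in Pdgfralow cells only. BSG, a cell-surface inducer of MMPs, fell (-0.16 and -0.24).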

How the data were processed

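RNA-seq of 8 libraries was used, 2 in each of 4 groups. The submitters' processing notes name FastQC 0.11.8, HISAT2 2.1.0 (an aligner) and the GRCh38 build. The authors' deposited counts per gene come, per the file headers, from featureCounts 2.0.3 with GENCODE 42, with both mates of a pair counted, without regard to strand, and with reads that overlap several genes or map to several places left out. A fragment thus adds up to 2 counts, and shared exon bases lower a gene's counts.

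From these counts, edgeR 4.0.16 (R 4.3.3) tested 22554 of 61209 genes that passed filterByExpr, with TMM scaling and a robust quasi-likelihood fit of 1 mean per group over all 8 libraries (4 residual degrees of freedom). Benjamini-Hochberg adjustment ran over all tested genes of each of 5 comparisons, at 0.05. CPM per kilobase divides by the summed exon length. DESeq2 1.42.0, other scalings, filters, single-comparison fits, a replicate block and left-out libraries were alternatives. Scripts were tested on simulated data. Genes were named by a fixed rule: the 4 TIMPs, the highest member of each role, and the members with the largest change that passed and reached 1 CPM in some group (8 per treatment comparison, 5 in the others). Members named beyond it were chosen after their values were seen. The members and all gene lists were chosen with earlier results of these data known.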

Additional observations from a re-analysis of the deposited data

Results flagged for a closer look

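For 25 tested members the test of the difference between the FGF8+10 effects in the Pdgfra+ and Pdgfralow populations passed (edgeR quasi-likelihood test, adjusted over all genes tested), against 26% of all genes tested. The values are on the log2 scale, the effect in Pdgfra+ cells minus the effect in Pdgfralow cells. Among the hyalectan-cleaving enzymes the difference was 0.25 for ADAMTS1, 0.7 for ADAMTS4, 1.35 for ADAMTS5, 1.07 for ADAMTS15 and 1.57 for ADAMTS20, all less negative or more positive in Pdgfra+ cells. The procollagen propeptidases differed by 0.3 for ADAMTS2 and -0.46 for ADAMTS3. In the other ADAMTS genes it was 0.44 for ADAMTS10, -0.2 for ADAMTS12, -0.77 for ADAMTS17 and 0.63 for ADAMTS18. All 5 ADAMTSL genes are in the list, with 1.6 for ADAMTSL1, -0.79 for ADAMTSL2, 0.67 for ADAMTSL3, -0.39 for ADAMTSL4 and -1.01 for ADAMTSL5. The MMPs had -1.23 for MMP1, -2.39 for MMP9, -0.18 for MMP14, 0.37 for MMP15, 0.16 for MMP16 and -1.78 for MMP24. The inhibitors had 0.23 for TIMP1, -0.18 for TIMP2 and -1.23 for TIMP3. Of the 25 differences, 10 did not pass in some alternative. TIMP2 was at -0.093 and MMP16 at 0.105 without replicate 2 of the Mock Pdgfra+ group. Without replicate 1 of that group MMP9 was at -1.43. ADAMTS18 was at 0.369 without replicate 1 of the FGF8+10 Pdgfra+ group. Each of these calls was lost there and without other single libraries as well. In DESeq2 the MMP16 difference did not pass either (adjusted p = 0.0757). The ADAMTS17 difference did not pass without any 1 of 7 libraries (adjusted p up to 0.232) or in DESeq2 (adjusted p = 0.0503), and the TIMP2 difference did not pass without any 1 of 7 libraries or in DESeq2 (adjusted p = 0.0635). With a library left out the adjusted p reached 0.0857 for ADAMTS4, 0.189 for ADAMTSL4, 0.0662 for ADAMTSL5, 0.177 for MMP1 and 0.0637 for MMP24. For MMP15 and TIMP1 the effects themselves had opposite signs and passed in both populations. The MMP15 effect in Pdgfra+ cells did not pass in DESeq2 (0.09, adjusted p = 0.0525). It was 0.055 without replicate 1 of the FGF8+10 Pdgfra+ group. With library totals alone the TIMP1 effects were both positive, 0.27 in Pdgfra+ and 0.03 in Pdgfralow cells. The gates were applied after treatment and may hold different cells in the 2 cultures, and the part of this in the differences was not tested.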

How the results depend on the processing

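Whether replicate numbers pair the libraries is not given. Deviations of same-numbered libraries from their group means correlated at 0.0187, -0.01, -0.00407 and -0.0122 in the 4 pairs of groups. These values weigh all tested genes alike, low counts included, so they cannot tell whether same-numbered libraries shared a culture. With the replicate block, the members called higher and lower numbered 16 and 17 for FGF8+10 against Mock in Pdgfra+ cells, 15 and 19 in Pdgfralow cells, 19 and 8 for Pdgfra+ against Pdgfralow cells with FGF8+10, 19 and 6 with Mock, and 13 and 11 for the difference of effects. Leaving out 1 library, whose lone partner is then assumed to vary like the other groups, gave 14 to 16 and 16 to 18, 15 to 15 and 19 to 20, 19 to 20 and 6 to 8, 15 to 20 and 4 to 6, and 11 to 13 and 7 to 9 in the same order. The 7 arose without replicate 2 of the FGF8+10 Pdgfra+ group. All other alternatives gave 15 to 18 and 16 to 18, 15 to 17 and 18 to 20, 19 to 20 and 8 to 9, 18 to 19 and 5 to 7, and 12 to 13 and 9 to 12. Calls held in every alternative run for 28 of 33, 33 of 34, 25 of 27, 19 of 25 and 15 of 25 members. Of 3232 single values, 3077 kept direction and side of the threshold, 92 lost the call, 21 gained one and 42, of 18 results, changed sign. DESeq2 gave no adjusted p for 6, which were judged by direction. Of the 42, 38 belong to 14 results that passed in no setting. With a library left out, FGF8+10 minus Mock was -1.84 to 1.59 for MMP23A (negative without replicate 2 of the FGF8+10 group), -1.324 to 0.046 for MMP23B and -0.077 to 0.292 for MMP25 in Pdgfra+ cells, and -0.62 to 0.118 for MMP21 and -0.207 to 0.2 for MMP25 in Pdgfralow cells. In the same way Pdgfra+ minus Pdgfralow with FGF8+10 was -0.052 to 0.138 for ADAMTS19, -0.148 to 0.037 for ADAMTSL4, -0.312 to 0.029 for MMP11, -0.029 to 0.012 for MMP14, -0.316 to 0.423 for MMP21 and -0.008 to 3.425 for MMP23A. With Mock it was -0.109 to 0.103 for ADAMTS4, -0.373 to 0.296 for MMP23A, -0.092 to 0.015 for MMP23B and -0.54 to 1.126 for TIMP4, and the difference of effects was -0.09 to 0.318 for MMP25. With library totals alone, ADAMTS10 (0.10) and TIMP1 (0.031) in Pdgfralow cells and ADAMTS4 with Mock (-0.018) changed sign. ADAMTS4 with Mock was also at -0.01 with DESeq2 and with its size factors, -0.017 with no filter and -0.008 with only the 4 libraries compared, and MMP21 with FGF8+10 at 0.002 with no filter. Counts divided by 2 gave -0.017 for MMP25 in Pdgfralow cells and -0.024 for TIMP4 with Mock. The replicate block gave -0.002 for ADAMTS4 and 0.011 for MMP23A with Mock and 0.019 for MMP21 with FGF8+10, and of the calls in the 5 comparisons it ended that of the ADAMTS17 difference (-0.77, adjusted p = 0.0511). The cause was not tested. Summing MMP23A and MMP23B was chosen after seeing the data. Low counts, at most 66 per library, limit MMP9, MMP17, MMP24, TIMP4 and, in Mock cells, MMP1.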
